A study of Mus musculus with 6 samples.

Results

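Gjb2, Gjb6, Gja1 and Gjb5 encode connexins, the proteins of gap junctions, and their transcripts were followed here in mouse ear skin at the site of a tick bite, with and without the gene for adiponectin. They are 4 of the 15667 genes of the deposited expression table, taken by gene symbol. They were chosen with measured values in view, because Gjb2 separated the KO from the WT libraries. Their difference between genotypes is therefore described without a test, and tests are given only for genes outside the 4.

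RNA was sequenced from ear skin of female mice carrying the normal adiponectin gene (Adipo+/+, WT, n = 3) and of their siblings from the same litters that carried a targeted null allele on both chromosomes (Adipo-/-, KO, n = 3). The KO strain was B6;129-Adipoqtm1Chan/J, in which the gene is lost from every cell from conception. All 6 mice were exposed to feeding Ixodes scapularis nymphs, and a punch of skin was taken where they had fed. Unbitten skin was not analysed here, so a level in bitten skin cannot be split into a resting level and a response to the bite.

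Connexins assemble into hemichannels, and hemichannels of neighbouring cells dock into a pore that passes ions and small molecules such as calcium, ATP and inositol phosphates. The epidermis holds several connexins in overlapping layers. Gja1 is found in its lower layers and in fibroblasts, vessels and hair follicles, whereas Gjb5 is found mainly in differentiating keratinocytes. Gjb2 and Gjb6 are low in resting epidermis between hair follicles and higher in hair follicles and in wounded or hyperproliferative epidermis, and mutations in either can cause deafness or skin disease.

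The sequences upstream of the 4 genes are shown because Gjb2 and Gjb6 are chromosomal neighbours whose levels differed widely. Each line gives the 250 bases before the gene's start in the RefSeq table (GRCm38.p6), 5′ to 3′ on the gene's strand. Gja1 lies on the plus strand and the other genes on the minus strand. Capitals mark matches on either strand to TGANTCA, the binding motif of AP-1 factors, or to the GC box GGGCGG. All 4 genes matched an entry of the table.
Gjb2, chr14:57104703-57104952: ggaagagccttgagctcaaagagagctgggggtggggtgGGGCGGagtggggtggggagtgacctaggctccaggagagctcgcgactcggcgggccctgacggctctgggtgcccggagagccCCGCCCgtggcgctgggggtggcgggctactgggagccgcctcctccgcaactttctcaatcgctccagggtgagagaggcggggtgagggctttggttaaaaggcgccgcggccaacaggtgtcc
Gjb6, chr14:57133612-57133861: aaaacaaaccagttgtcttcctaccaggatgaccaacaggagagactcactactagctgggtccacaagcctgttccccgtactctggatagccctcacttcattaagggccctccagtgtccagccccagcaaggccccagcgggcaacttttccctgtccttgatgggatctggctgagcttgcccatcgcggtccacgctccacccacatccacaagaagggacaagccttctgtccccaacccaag
Gjb5, chr4:127358165-127358414: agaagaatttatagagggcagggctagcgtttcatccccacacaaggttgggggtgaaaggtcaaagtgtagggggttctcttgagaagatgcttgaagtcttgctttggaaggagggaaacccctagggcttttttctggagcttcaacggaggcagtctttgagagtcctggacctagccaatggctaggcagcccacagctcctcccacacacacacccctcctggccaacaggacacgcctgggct
Gja1, chr10:56377050-56377299: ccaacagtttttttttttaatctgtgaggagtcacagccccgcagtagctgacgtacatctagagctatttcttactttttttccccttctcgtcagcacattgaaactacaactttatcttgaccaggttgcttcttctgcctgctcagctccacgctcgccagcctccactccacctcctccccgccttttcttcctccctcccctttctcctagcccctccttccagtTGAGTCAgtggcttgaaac

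The Gjb2 window was rich in G and C. Its GC content was 69.2% with 18 CpG dinucleotides, against a median of 52.4% and 6 CpG over the 32851 windows of the table. It held 2 GC boxes, whose first bases lay 211 and 126 bases before the start, and 32.7% of all windows held at least 1. The Gja1 window (GC 50.0%) held 1 AP-1 match, TGAGTCA, 19 bases before the start, a motif found in 6.75% of windows. The Gjb5 window (54.4%) held a match to TATAAA on the opposite strand 243 bases before the start and a CCAAT match 70 bases before it. These were present in 12.4% and 33.8% of windows. None of the 4 motifs was found in the Gjb6 window (56.8%). No motif was shared by Gjb2 and Gjb6, and no motif match is evidence of a bound site.

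Values were counts per 1000000 reads (CPM), as deposited. Libraries are given in the order of their replicate numbers, 1 to 3. The depth implied by the lowest values was 3401129 to 6587801 reads per library, at which 3 reads were worth 0.455 to 0.882 CPM. The ribosomal gene Rn45s took 7.99% to 11.4% of reads. Adipoq, the targeted gene, had 30.5, 63.7 and 49.6 CPM in the WT libraries and 0, 0.560 and 0 CPM in those of KO, matching the labels. WT replicate 3 stood apart in hair follicle transcripts, as described with the markers. Of 14306 genes tested with limma, 260 (1.82%) were lower and 152 (1.06%) higher in KO at an unadjusted p below 0.05, whereas 1 gene in each direction (0.00699% each) passed after Benjamini-Hochberg adjustment. The split depended on the scaling, since quantile normalization gave 193 lower and 232 higher. The median log2 fold change of all genes was -0.03, and 56.7% of the fitted values lay below 0.

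Gjb2, on chromosome 14 (57098602 to 57104702, minus strand, GRCm38), encodes the connexin whose values led to the choice of the 4 genes. The WT libraries held 454, 260 and 439 CPM, and the KO libraries 175, 168 and 110 CPM. Every KO library lay below every WT library. The lowest WT value was 1.48 times the highest KO value, a gap of 84.4 CPM. The estimated reads behind these values numbered 1875, 1277 and 2661 in WT and 1155, 599 and 373 in KO, a counting error of 1.94% to 5.18% of the value. The mean was 384 ± 108 CPM for WT and 151 ± 36.0 CPM for KO (SD, n = 3 each), a ratio of KO to WT of 0.393. On the log2(CPM + 0.5) scale the fitted KO minus WT difference was -1.33 with a standard error of 0.26. WT replicate 2 was the lowest of its group, and the relative spread was similar in both groups, with a coefficient of variation of 28.1% in WT and 23.9% in KO. Complete separation with KO below WT was seen for 700 of all genes tested (4.89%). Since the gene was selected on this separation, the separation is not a result about it.

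Gjb6 lies 18.6 kb from Gjb2 on the same strand (chromosome 14, 57123301 to 57133611), and its protein can form mixed channels with that of Gjb2. Its level was far lower, at 29.5, 23.2 and 22.4 CPM in the WT libraries and 24.6, 11.8 and 12.9 CPM in the KO libraries. The groups overlapped, since KO replicate 1 lay above WT replicates 2 and 3. KO replicates 2 and 3 lay below all 3 WT libraries. WT averaged 25.0 ± 3.90 CPM and KO 16.4 ± 7.08 CPM (SD, n = 3 each), and the fitted log2 difference was -0.66 (SE 0.28). Only 42 and 44 estimated reads stood behind the values of KO replicates 2 and 3. Without KO replicate 1 the fitted difference was -0.98, and without KO replicate 2 it was -0.47. Gjb6 thus had the same sign as its neighbour, with 1 KO library in the WT range.

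Gja1, on chromosome 10 (56377300 to 56390419, plus strand), encodes the most widely distributed connexin of the body. WT libraries held 492, 365 and 858 CPM, and KO libraries 405, 511 and 298 CPM. The groups overlapped between 365 and 511 CPM, and WT replicate 3 was above all other libraries. WT averaged 572 ± 256 CPM and KO 405 ± 107 CPM (SD, n = 3 each), and the fitted log2 difference was -0.44 (SE 0.32). This value rested on single libraries: leaving out WT replicate 3 gave -0.10, leaving out KO replicate 3 gave -0.24, and leaving out WT replicate 2 gave -0.72.

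Gjb5 was the member with the opposite sign (chromosome 4, 127354809 to 127358164, minus strand). It encodes a connexin of differentiating keratinocytes and of the placenta. WT libraries held 66.6, 83.6 and 74.2 CPM, and KO libraries 100.1, 83.2 and 100.2 CPM. KO replicates 1 and 3 lay above all WT libraries, and KO replicate 2 lay just under WT replicate 2, so the groups overlapped by that pair alone. WT averaged 74.8 ± 8.54 CPM and KO 94.5 ± 9.77 CPM (SD, n = 3 each), a ratio of KO to WT of 1.26. The fitted log2 difference was 0.34 (SE 0.13). Gjb5 varied least within groups, with a coefficient of variation of 11.4% in WT and 10.3% in KO, against 44.7% and 26.4% for Gja1.

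**Figure D1:**
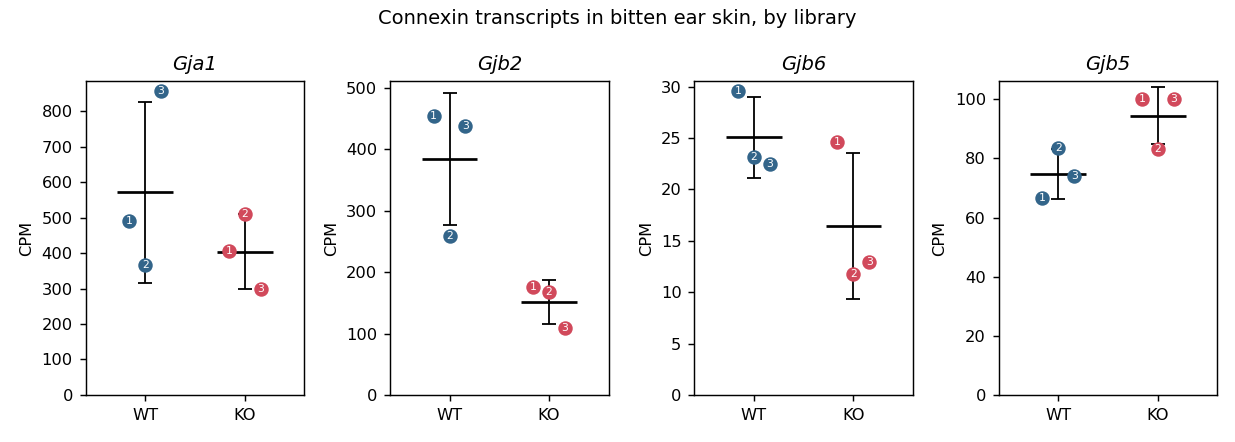
CPM of each connexin (vertical axis, from 0, with its own scale per panel) in each library, with the replicate number in the point, the group mean as a line and 1 SD as bars (n = 3 per group). For Gjb2 all 3 KO points lie below all 3 WT points, for Gjb6 and Gja1 the groups overlap, and for Gjb5 KO replicate 2 lies at the level of WT replicate 2.

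Across the 4 genes, 3 fitted differences were below 0, the median was -0.55, 1 gene had all KO values below all WT values and none had all KO values above, an arrangement seen in 2.95% of genes tested. Beside them, 9 further connexins and pannexins are reported. With limma, 0 of the 9 were lower and 0 higher in KO at an unadjusted p below 0.05, and 0 passed after adjustment (adjusted p = 0.998 for each). Of these, 4 fitted differences were below 0, and their median log2 fold change was 0.08.

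Panx1 and Panx3, which encode pannexins and not connexins, had the most reads of the 9 genes. For Panx1, a channel protein that releases ATP, the log2 difference was 0.09 (SE 0.17), with WT at 20.3 to 25.7 CPM and KO at 21.7 to 27.5 CPM. Panx3 was at 9.36 to 10.6 CPM in WT and 8.65 to 13.5 CPM in KO (0.08, SE 0.22). The 7 connexins among the 9 were near the limit of detection, so their differences are imprecise. Gjd3 was the only one of the 9 genes with all KO values above all WT values, with 1.21, 0 and 0.659 CPM in WT against 1.67, 2.24 and 1.47 CPM in KO. These values stand for 9 estimated reads in WT and 24 in KO in all (log2 difference 1.19, SE 0.54). With so few reads the difference depended on the processing, from 0.55 with a pseudocount of 2 to 2.02 with voom. Gja5, an arterial endothelial connexin, rested on 24 and 35 reads (0.59, SE 0.40). Gja4, which is also endothelial, rested on 32 and 28 reads (-0.04, SE 0.47), and Gjc1, a connexin of smooth muscle, on 78 and 54 reads (-0.27, SE 0.39). Gjb1 (-0.56, SE 0.58) and Gjc3 (-0.41, SE 0.46) had 21 reads each in WT and 10 and 12 in KO.

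**Figure D2:**
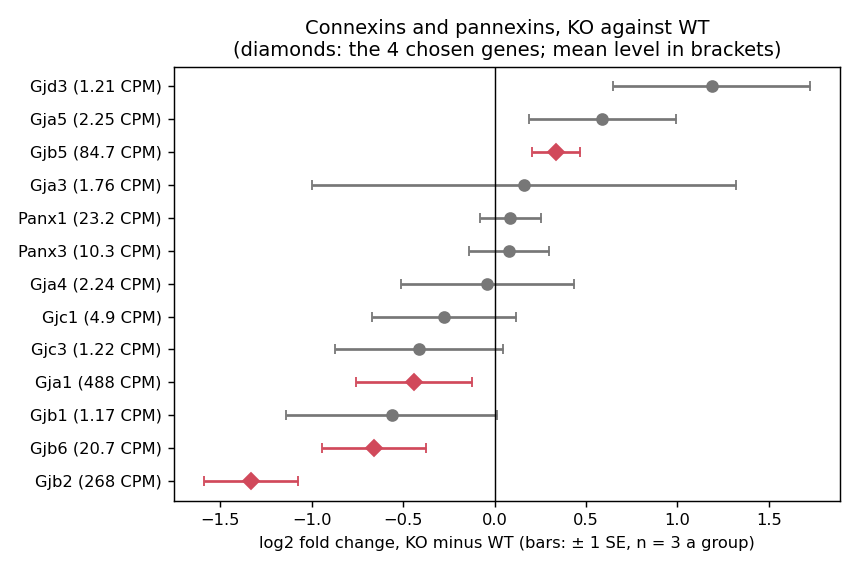
Fitted log2 fold change, KO minus WT, of the 13 connexins and pannexins reported (points, with bars of 1 SE, n = 3 per group), ordered by size, with the mean CPM in brackets and the 4 chosen genes as diamonds. Gjb2 lies lowest at -1.33, Gjb5 lies at 0.34, and the genes with a mean of a few CPM have wide bars.

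Levels of different genes can be compared only per length, so CPM was divided by the kilobases of each gene's longest RefSeq-paired mRNA. Over the 6 libraries the order of levels among the 4 genes was Gja1 (159 CPM per kb), Gjb2 (111), Gjb5 (49.2) and Gjb6 (9.85). Each of the other 9 genes was lower, Panx3 leading them at 4.08 CPM per kb. In WT, Gja1 (186 ± 83.3 CPM per kb) and Gjb2 (159.7 ± 44.9) did not differ beyond their spread, and Gjb5 (43.5 ± 4.96) was lower than both in every library. In KO, Gjb2 (62.7 ± 14.97) and Gjb5 (54.9 ± 5.68) had overlapping spreads, below Gja1 (132 ± 34.8; all SD, n = 3). Within libraries, Gjb2 ranked 1, 2 and 2 among the 4 genes in WT but 2, 2 and 3 in KO. Gjb6 ranked 4 in all 6 libraries, with 11.9 ± 1.85 CPM per kb in WT against 7.80 ± 3.37 in KO.

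Summed over the 4 genes, the level came to 402, 287 and 516 CPM per kb in WT against 275, 290.2 and 207 CPM per kb in KO. The groups overlapped, since KO replicate 2 lay just above WT replicate 2. Gjb2 made up 47.0%, 37.7% and 35.4% of that sum in the WT libraries, and 26.5%, 24.0% and 22.0% in the KO libraries. Gjb5 made up 11.6% ± 4.64 in WT and 22.0% ± 5.79 in KO, and its shares overlapped. The share of Gja1 was 45.2% ± 7.83 in WT and 50.8% ± 5.77 in KO, and that of Gjb6 3.13% ± 0.942 and 3.05% ± 1.16 (SD, n = 3 each). Shares of 1 sum move together: a lower share of Gjb2 raises the shares of the rest.

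**Figure D3:**
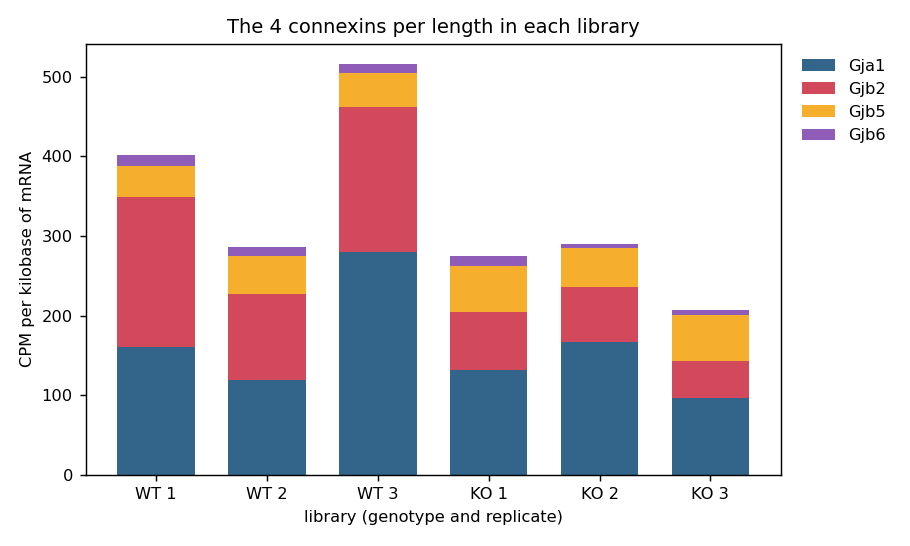
Level of the 4 connexins in CPM per kilobase of mRNA (vertical axis, from 0), stacked by gene for each library. The Gjb2 segment makes up 35.4% to 47.0% of the WT bars and 22.0% to 26.5% of the KO bars, and Gja1 is the largest segment in 5 of the 6 libraries, WT replicate 1 being the exception.

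Ratios within a library do not depend on its total. Gjb2 to Gja1, per kb, was 1.18, 0.908 and 0.653 in WT and 0.553, 0.419 and 0.470 in KO. Gjb2 to Gjb5 was 2.22 to 4.88 in WT and 0.782 to 1.44 in KO. Neither ratio overlapped between the groups. The ratio of Gjb2 to its neighbour Gjb6 did overlap, at 13.5, 9.80 and 17.1 in WT and 6.24, 12.5 and 7.42 in KO. The ratio of Gjb5 to Gjb6 was 2.76, 4.41 and 4.05 in WT against 4.98, 8.65 and 9.48 in KO, again with no overlap, whereas that of Gja1 to Gjb5 overlapped (2.45 to 6.48 and 1.66 to 3.44). The 4 genes were chosen on the same values, so the ratios are given as descriptions. Ratios of other gene pairs were not computed, so how often a ratio shows no overlap is not known.

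Across the 6 libraries the 4 genes split in the same way. The following correlations of log2 values rest on 6 points that include the genotype difference, and are descriptions. Gjb2 had r = 0.75 with Gjb6, 0.72 with Gja1 and -0.90 with Gjb5. Gjb5 had r = -0.65 with Gja1 and -0.47 with Gjb6. Gjb6 and Gja1, which both went with Gjb2, had r = 0.25 with each other.

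Among the 9849 genes that averaged 10 CPM or more, those most like Gjb2 by Pearson's r over the 6 libraries were Zfp426 (0.983), Etfrf1 (0.978), Acp6 (0.975), Trib1 (0.972) and Cbr1 (0.969). Trib1 is a pseudokinase that directs protein degradation, Cbr1 a carbonyl reductase and Acp6 a mitochondrial phosphatase. Their amplitude was smaller than that of Gjb2: Trib1 averaged 77.1 CPM in WT against 62.3 CPM in KO, and Acp6 15.2 against 11.9 CPM. In all, 62 of the 9849 genes had r above 0.9 with Gjb2 and 52 below -0.9. The genes most like Gjb5 were Faah (0.997), Fam25c (0.988), Sphk1 (0.980), Ereg (0.980) and Mcts1 (0.978). Faah degrades the endocannabinoid anandamide, Sphk1 makes sphingosine 1-phosphate and Ereg is the EGF receptor ligand epiregulin. Faah stood at 51.1, 63.7 and 57.9 CPM in WT against 79.6, 64.7 and 81.1 CPM in KO, and Ereg averaged 90.8 CPM in WT against 122 CPM in KO. Likewise, 79 of the 9849 genes had r above 0.9 with Gjb5 and 60 below -0.9. The same counts were not made for other genes, so it is not known whether these are high or low. The values rest on 6 libraries and include the genotype difference on which Gjb2 was chosen. The genes are named as a description, and shared control was not tested.

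Neighbouring genes on the chromosome were examined next. Gja3, 40.6 kb from Gjb2 on the other side from Gjb6, is best known from the lens. Its values were 0, 0 and 6.43 CPM in WT against 0.759, 3.36 and 0 CPM in KO (log2 difference 0.16, SE 1.16). Its highest values, from 39 and 12 estimated reads, were in WT replicate 3 and KO replicate 2, the libraries with the most hair follicle transcripts. The part of the hair follicle in the level of Gja3 was not tested. Beyond Gjb6, Cryl1 averaged 10.8 CPM in WT against 8.82 CPM in KO (log2 difference -0.26, SE 0.27). Around Gja1, the log2 differences were 0.32 (SE 0.41) for Msl3l2, 260.4 kb away, and -0.11 (SE 0.22) for Hsf2, 1096 kb away. Around Gjb5, they were -0.04 (SE 0.47) for Gja4, 40.8 kb away, and 0.24 (SE 0.27) for Zscan20, 1225 kb away. By limma the adjusted p was 0.998 for each of these neighbours. No gene of the table overlapped any of the 4. None of their mRNA words of 31 bases, from 1691 words in Gjb5 to 3041 in Gja1, occurred in a transcript of another gene. Only exact matches were sought, so near copies with mismatches were not covered.

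Proteins that bind, anchor, phosphorylate or degrade connexins were examined as a list of 28 genes, of which 27 were tested. With limma, 0 were lower and 0 higher in KO at an unadjusted p below 0.05. The median log2 fold change was -0.09, against -0.03 for all genes tested. Of the 27 fitted values 23 lay below 0, against 56.7% of those of all genes, and genes of 1 list are not independent. Csnk1d was the 1 gene with every KO value below every WT value, as in 4.89% of all genes tested. Tjp1, the scaffold ZO-1 to which Gja1 binds, differed by -0.05, and the adhesion protein E-cadherin (Cdh1) by -0.02. Caveolin (Cav1) differed by -0.30 (adjusted p = 0.998, limma).

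The cell types that hold these connexins were followed with marker lists. In bulk skin, fewer cells of a type and less RNA per cell cannot be told apart. Basal keratinocyte markers summed to 14956 to 20467 CPM in WT and 17740 to 21832 CPM in KO (12 tested, median log2 fold change -0.10, or -0.21 to -0.01 with 1 library left out), so keratinocyte transcripts were abundant in all 6 libraries. In that list Lamb3 was lower in KO at an unadjusted p below 0.05 by limma. The suprabasal markers, of the layers that hold Gjb5, summed to 28682 to 36301 CPM in WT and 35004 to 50792 CPM in KO (15 tested, median 0.23, or 0.07 to 0.35 with 1 library left out). Of these, Calm4 was higher in KO at an unadjusted p below 0.05 (log2 difference 0.66; adjusted p = 0.998, limma). KO replicates 1 and 3 had the highest suprabasal sums, 50792 and 49024 CPM, and were also the libraries highest in Gjb5. The orders did not match within WT, where replicate 1 had the highest sum, 36301 CPM, and the lowest Gjb5 level, 66.6 CPM. The part of the suprabasal markers in the level of Gjb5 was not tested.

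Wound-edge keratinocyte markers, genes of injured or hyperproliferative epidermis, varied widely within groups, with sums of 2404 to 14040 CPM in WT and 2211 to 7310 CPM in KO. Of 18 tested, 2 were lower in KO at an unadjusted p below 0.05 by limma and 0 higher, with a median of -0.39. That median was 0.01 without WT replicate 1 and -1.05 without WT replicate 3. The keratin Krt17 stood at 858, 842 and 775 CPM in WT against 499, 497 and 418 CPM in KO, with no overlap (log2 difference -0.81, SE 0.11; adjusted p = 0.340, limma). Areg, an EGF receptor ligand, stood at 28.6, 6.51 and 4.62 CPM in WT against 3.03, 2.24 and 1.18 CPM in KO, also with no overlap (log2 difference -2.002, SE 0.64; adjusted p = 0.998, limma). Krt6a, by contrast, ran from 351 to 4343 CPM in WT and from 397 to 1849 CPM in KO. WT replicates 1 and 3, the highest and lowest in Krt6a, had Gjb2 levels of 454 and 439 CPM. Krt6a was named after its values were seen, so it does not stand for the list. Of the 18 markers tested, only Krt17 and Areg had every KO value below every WT value, as had 4.89% of all genes tested. The same separation was seen for 2 of the 8 sebocyte markers. It was also seen for 1 marker each of the basal, endothelial and skeletal muscle lists. The part of wound-edge markers in the level of Gjb2 was not tested.

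Hair follicle markers, mostly keratins of the growing hair, showed the largest imbalance between libraries. Their sum was 30.0 and 37.0 CPM in WT replicates 1 and 2 but 24052 CPM in WT replicate 3, and 1926, 9595 and 1002 CPM in KO replicates 1, 2 and 3. In WT replicate 1, 12 of the 20 markers were at 0 CPM, among them Krt25, Krt71 and Dsg4, and in WT replicate 2, 9 were, whereas none was at 0 in the other libraries. Of 20 tested, 0 passed an unadjusted p below 0.05 in either direction (median log2 fold change 2.57, or 0.93 without WT replicate 1 and 5.64 without WT replicate 3). With the mean log2 level of these markers as a covariate, the fitted difference of Gjb2 was -1.45 (SE 0.24), that of Gjb6 -0.57 (SE 0.30), that of Gja1 -0.75 (SE 0.17) and that of Gjb5 0.36 (SE 0.15). Without WT replicate 3 the difference of Gjb2 was -1.21. The part of the hair follicle in these levels was not tested. Melanocyte markers were also highest in WT replicate 3, at 136 CPM against 19.4 to 32.5 CPM in the other libraries (5 tested, 0 passed, median -0.99). Without that library their median was 0.31.

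Markers of sebocytes and of cells outside the epithelium were set beside the connexins for the same reason. Adipocyte markers, which leave out Adipoq, summed to 633 to 1043 CPM in WT and 343 to 804 CPM in KO, and 3 of 8 (Fabp4, Lpl and Car3) were lower in KO at an unadjusted p below 0.05. Sebocyte markers summed to 3329 to 4835 and 2467 to 3498 CPM, with 2 of 8 lower (Scd1 and Pparg), and skeletal muscle markers to 5371 to 6830 and 3221 to 6544 CPM, with 2 of 8 lower (Myh1 and Myl1). Among fibroblast markers (4510 to 5507 and 4593 to 7044 CPM) 1 of 8, Col1a1, was higher. Among endothelial markers (157 to 176 and 111 to 175 CPM) 1 of 8, Tek, was lower. In the neutrophil (71.7 to 626 and 134 to 237 CPM), macrophage (531 to 1089 and 513 to 1034 CPM) and Schwann cell lists (225 to 314 and 242 to 379 CPM) 0 genes passed in either direction, with medians of -0.34, -0.12 and 0.05. Each of these 3 medians changed sign when 1 library was left out: leaving out WT replicate 1 or KO replicate 3 gave neutrophil medians of 0.58 and 0.02, leaving out WT replicate 2 or KO replicate 1 gave macrophage medians of 0.17 and 0.13, and leaving out KO replicate 2 or WT replicate 3 gave Schwann cell medians of -0.21 and -0.04. The medians were -0.84 for adipocyte (-1.21 to -0.48 with 1 library left out), -0.28 for sebocyte (-0.39 to -0.26) and -0.52 for muscle markers (-0.82 to -0.30). The fibroblast median (0.02, range -0.12 to 0.20) changed sign when WT replicate 1, WT replicate 3 or KO replicate 3 was left out, and the endothelial median (-0.11, range -0.23 to 0.02) when KO replicate 1 was. No marker of the basal, suprabasal, adipocyte, sebocyte, muscle, fibroblast, endothelial, neutrophil, macrophage or Schwann cell lists was at 0 in any library. Over all the marker lists 11 of 130 genes tested (8.46%) were lower and 2 (1.54%) higher at an unadjusted p below 0.05, against 1.82% and 1.06% of all genes, and 0 passed after adjustment (smallest adjusted p = 0.340, limma). The lists were chosen with earlier results of these data known, so the higher share is a description and not a test. Genes of 1 list can move together and are not independent. The part of the cell types of these lists in the connexin levels was not tested.

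**Figure D4:**
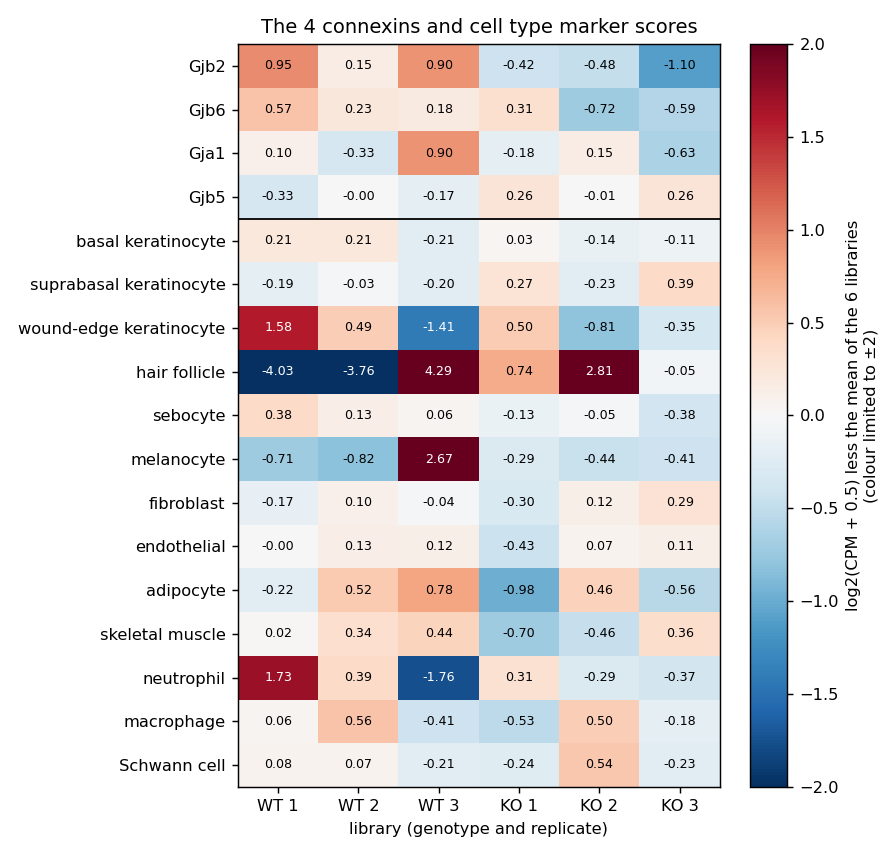
Log2(CPM + 0.5) of the 4 connexins (upper rows) and the mean log2 level of each marker list (lower rows) in each library, as the difference from the mean of the 6 libraries (colour limited to ±2, values printed). Gjb2 is above 0 in all WT and below 0 in all KO libraries, whereas hair follicle and wound-edge markers change sign within both groups. Among the marker lists, the sebocyte row has the same signs as Gjb2, at 0.06 to 0.38 in WT and -0.38 to -0.05 in KO.

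Every fitted difference of the 4 genes kept its sign under all 17 alternatives tried, which changed the pseudocount, the filter, the scaling, the model or the set of libraries. The range was -1.59 to -1.12 for Gjb2, -0.98 to -0.47 for Gjb6, -0.75 to -0.10 for Gja1 and 0.26 to 0.43 for Gjb5. Because the genes were chosen on this contrast, a constant sign of Gjb2 is a description of these libraries and not a test.

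**Figure D5:**
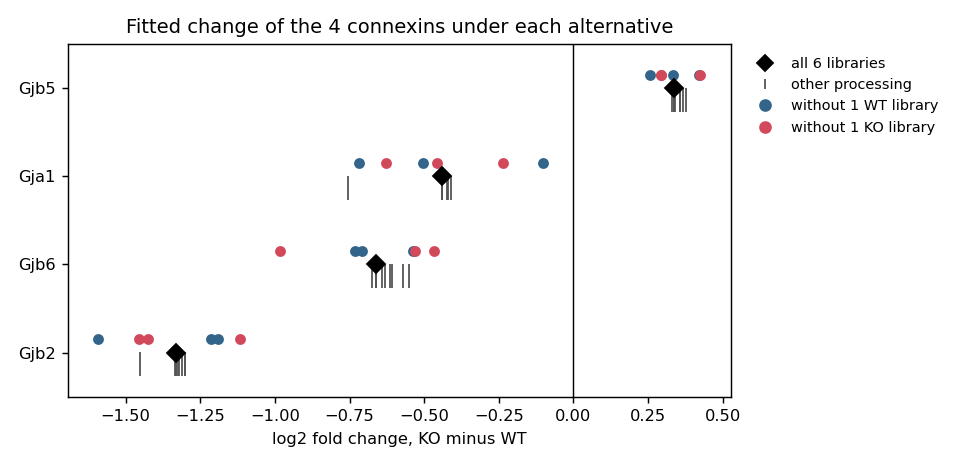
Fitted log2 fold change, KO minus WT, of each gene (horizontal axis) with all 6 libraries (diamond), without 1 WT or 1 KO library (blue and red points) and with other processing (ticks). Gja1 reaches -0.10 without WT replicate 3, and the ranges of Gjb2 and Gjb5 stay on opposite sides of 0.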

How the data were processed

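Ear skin RNA was sequenced from 3 WT and 3 KO mice, 1 library per mouse by the study's methods, with genotypes taken from the labels. The authors aligned reads to mm10 with STAR (version 2.7.3a) in Partek Flow and quantified Ensembl transcripts by expectation maximization, which can split a read between genes. The deposited values are CPM: the authors divided gene counts by the library total and added 0.0001. Strandedness of the counting was not given in the sources used here. All 6 value columns were used.

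Values were analysed as log2(CPM + 0.5), which understates changes of low genes, keeping the 14306 genes that averaged 1 CPM or more (1361 did not). The genotypes were set against each other with limma (version 3.58.1, R 4.3.3; trended empirical Bayes), two-sided, with Benjamini-Hochberg adjustment over all genes and no covariate. This fit was tested on simulated data in which every gene had the same relative spread between replicates beyond counting error. Genes of these libraries differ in that spread, which the simulation does not cover.

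Depth was estimated from the spacing of the lowest CPM values, 1 step being 1 read. Between 91.9% and 92.8% of values below 20 reads were whole to within 0.1. Reads are estimates, and depth covers counting error only.

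Lengths are those of the longest GENCODE M21 transcript paired with a RefSeq mRNA. Listed gene ends were lowered by 1. Promoters came from RefSeq. Named genes were the 4 members, other connexins and pannexins, the 5 genes most like Gjb2 and Gjb5 each, chromosomal neighbours, genes of the lists at an unadjusted p below 0.05, and Adipoq. Some genes that this rule names are not reported here. Members and lists were chosen with earlier results of these data known. Krt6a, Tjp1, Cdh1 and Cav1 were named after their values were seen. Alternatives were other pseudocounts, filters and scalings, a replicate block, a hair follicle covariate, limma without trend, voom on estimated reads, and leaving out each library.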

Additional observations from a re-analysis of the deposited data

How the results depend on the processing

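All 17 alternatives kept the direction of the 4 connexin differences, and none moved one by more than the spread between replicates. Counts of other genes at an unadjusted p below 0.05 were less stable. The balance of directions moved with scaling: median-of-ratios rescaling gave 215 of all genes lower and 210 higher in KO, and quantile normalization 193 lower and 232 higher. With the hair follicle covariate 568 of all genes were lower and 301 higher (3 and 6 after adjustment), 1 junction partner was lower, and 22 marker genes were lower and 16 higher. Of the other connexins and pannexins 1, Gjd3, was higher without the filter, without the trend and with voom. Without the trend 0 marker genes were higher, and with voom 0 of all genes were lower after adjustment. Leaving out 1 library gave 147 (without WT replicate 2) to 390 of all genes lower and 89 (without KO replicate 3) to 320 (without WT replicate 3) higher. After adjustment 0 to 2 were lower and 0 to 14 higher. Of the marker genes 6 to 25 were lower and 0 to 21 higher, of the other connexins and pannexins 0 to 1 were higher, and of the junction partners 0 to 2 lower. The cause was not tested.

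The labels give both groups replicate numbers 1 to 3. Deviations of same-numbered samples correlated at 0.376, -0.306 and -0.222. Those of differently numbered samples ran from -0.382 (WT replicate 1 with KO replicate 2) to 0.449 (WT replicate 3 with KO replicate 2). No pairing by number was seen, but with 3 samples per group this check cannot exclude one. With a replicate block 414 of all genes were lower, and 23 marker genes were lower and 4 higher. The connexin differences were the same, with standard errors of 0.25 for Gjb2, 0.19 for Gjb6, 0.36 for Gja1 and 0.14 for Gjb5.

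With 3 mice per group and 3401129 to 6587801 reads, connexins at a few CPM rest on few reads, and their differences are imprecise. The table holds CPM, so the depth is an estimate. These libraries hold no measurement of protein or of cell numbers.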
